A study of Mus musculus with 36 samples.

Results

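Cortex and medulla of kidneys from Balb/c mice that had received 0 MBq of the radiolabelled peptide 177Lu-octreotate were compared on Illumina bead arrays. The members were chosen by title: 3 arrays of cortex at 0 MBq and 3 arrays of medulla at 0 MBq, paired by replicate number, which is 6 of the 36 arrays of the series. The mice of both groups are labelled with the same strain, nuclide and interval of 24 h, so the tissue is the one labelled difference between the groups. The labels give no age, and nothing in them says what, if anything, was injected at 0 MBq. The other 30 arrays, 15 of each tissue, come from mice given 1.3, 3.6, 14, 45 or 140 MBq. Whether the 3 arrays per tissue are from 3 mice is not stated. The p-values therefore measure the spread between these samples, in the paired fit that of the pair differences, which may be technical.

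The renal cortex holds the glomeruli, the convoluted tubules and most of the transport machinery that reclaims glucose, amino acids and phosphate from the filtrate and secretes organic anions. The medulla holds the loops of Henle, the medullary collecting ducts and the parallel vessels called vasa recta, and its interstitium is kept salty and rich in urea so that urine can be concentrated. Its cells take up organic osmolytes to keep their volume in that environment, and the papilla at its tip projects into the urothelium-lined renal pelvis.

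On the 6 arrays the median probe signal lay between 112.2 and 166 in cortex and between 123 and 186 in medulla, and between 12520 and 13147 probes in cortex and 12889 and 13293 probes in medulla were detected, of 25697 on the array. The number of arrays limits the precision. Same-numbered arrays of the 2 tissues deviated together from their group means, with correlations across genes of 0.7003, 0.6549 and 0.6741 for replicates 1, 2 and 3. Arrays of different number had at most -0.1 with each other, but deviations from a mean of 3 arrays sum to 0. Values below 0 between different numbers follow in part from the same-number correlations and are not separate evidence. Values below are log2 signals after background correction and quantile normalisation, differences are cortex minus medulla ± limma's standard error, and adjusted p-values are limma's from a fit with tissue and replicate number over 9928 genes. Genes below an adjusted p of 0.05 are termed called. Markers of either zone were detected in both tissues: the distal tubule gene Slc12a3 and the proximal Slc34a1 were detected on all 3 medulla arrays, and the loop gene Slc12a1 on all 3 cortex arrays. A gene's level is that of its own probe and is not set against the level of another gene. In bulk tissue a larger share of a cell type and more RNA per cell cannot be told apart.

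Most genes differed little between the tissues, and the called differences were mostly towards medulla. Of 9928 genes 89 were called (0.896%), 15 higher in cortex (0.151%) and 74 higher in medulla (0.745%). The gene lists below were chosen with earlier results of these data known, so counts of called genes in them are no separate evidence. The sizes were unequal: the 15 genes higher in cortex lay between 0.93 and 1.45 (median 1.02), and the 74 higher in medulla between -5.46 and -0.88 (median -1.30). No gene of those tested exceeded a difference of 2 towards cortex, while 24 did towards medulla. All 89 called genes had the same direction in 3 of 3 pairs. At an unadjusted p under 0.05 the split was 970 genes towards cortex and 845 towards medulla, and the median difference of all genes was 0.04.

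The calls rest on 3 pairs. Without the pair of replicate 2 no gene was called by limma (1122 at an unadjusted p under 0.05). Without replicate 3 the number was 30, and without replicate 1 it was 383. The direction of the 89 genes could not change in these fits, because all 3 pairs of each ran alike. With unpaired arrays 7 genes were called, all higher in medulla: Slc14a2, Lypd2, Psca, Corin, Fst, Scel and Angpt2. The deposited normalisation called 231 genes higher in cortex and 340 higher in medulla, and no background correction called 218 and 322. In these 2 settings the differences of the 89 genes were smaller, at a median of 0.551 and 0.569 times the values given here.

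The largest difference was in urea transport. Slc14a2, which encodes the urea transporter UT-A of the collecting duct and thin descending limb, had log2 signals of 5.56, 5.07 and 7.08 in cortex, against 11.23, 11.99 and 10.85 in medulla. The tissues did not overlap, and in cortex the probe was detected on 1 of 3 arrays, that of replicate 3. The difference was -5.46 ± 0.54 (adjusted p = 0.0279). A different probe of the gene gave -3.20 ± 0.30 (adjusted p = 0.0187 in a fit of every probe). Slc14a1, the urea transporter UT-B of vasa recta and red cells, was undetected on all cortex arrays, with 4.71, 4.59 and 4.95, and detected in medulla, with 6.32, 5.70 and 6.56. It was at least 1.41-fold higher in medulla, a bound that uses the lowest detected signal of each cortex array in place of an undetected value. Limma's adjusted p of 0.0291 belongs to the fitted difference of -1.44, which uses the undetected values as measured. The same holds for the other genes given below with such a bound. These genes passed the detection filter through the medulla arrays alone. The other members of the urea list, which covers urea and arginine metabolism, were not called: of 7 tested genes 0 were called higher in cortex and 2 higher in medulla. The list's median was -0.16, and it was 0.06 with the deposited normalisation, 0.05 without background correction, 0.27 without replicate 1 and -0.51 without replicate 3. Gatm, the first enzyme of creatine synthesis from arginine, had 0.77 ± 0.24 (adjusted p = 0.178).

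Genes of osmolyte uptake and protein protection were also among the called genes. Slc6a12, the betaine transporter that kidney cells induce in salty surroundings, had 5.25, 4.99 and 6.39 in cortex and 10.12, 7.31 and 9.28 in medulla, a difference of -3.36 ± 0.46 (adjusted p = 0.0427). Medulla replicate 2 was the lowest of its group and still lay above all cortex arrays, of which 1 of 3 was detected. The small heat shock protein Cryab had 9.87, 9.004 and 9.81 in cortex and 12.24, 10.79 and 11.40 in medulla (-1.92 ± 0.18, adjusted p = 0.0240). Of 12 tested genes of the osmolyte and tonicity list these 2 were called higher in medulla and 0 higher in cortex, and 7 had all 3 pairs towards medulla, which holds for 18.1% of all genes. The taurine transporter Slc6a6 (0.01), the myo-inositol transporter Slc5a3 (0.08) and the tonicity factor gene Nfat5 (-0.24) were not called. The list's median was -0.33 (-0.20 without replicate 3), against 0.04 for all genes. The heat shock protein gene Hspb1 had -0.88 (adjusted p = 0.102).

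Nfat5 encodes the factor that binds the tonicity-responsive enhancer, so its consensus was searched on both strands in the promoter windows that RefSeq (build GRCm38.p6) gives for called genes, from 250 bases before to 50 bases after each start. Windows were found for 48 of the 74 genes higher in medulla and 11 of the 15 higher in cortex. The consensus stood in 8 of 70 windows of medulla genes (11.4%), in 0 of 16 windows of cortex genes, in 3.76% of windows of tested genes and in 4.96% of all 32851 windows. Overlapping windows of Il18r1 share a single match, which is counted in each. By gene the consensus stood in 7 of 48 medulla genes (14.6%), 0 of 11 cortex genes and 4.77% of tested genes. It overlapped none of the other motifs searched in the called windows. A match is a description of letters and not a binding site. The stretch of the betaine transporter is shown because its gene is the called osmolyte transporter, and those of Igfbp5 and P2ry14 because these medulla genes are described below. Capitals mark the match, and each is 60 bases long, 5′ to 3′ on the gene's strand.

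Slc6a12 (chr6:121342475-121342534, plus strand): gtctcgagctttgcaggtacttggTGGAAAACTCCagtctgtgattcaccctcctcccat

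Igfbp5 (chr1:72874866-72874925, minus strand): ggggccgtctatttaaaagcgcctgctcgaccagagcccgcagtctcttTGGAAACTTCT

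P2ry14 (chr3:59131190-59131249, minus strand): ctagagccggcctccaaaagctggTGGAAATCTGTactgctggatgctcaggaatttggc

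The match lies 75 to 65 bases before the start in Slc6a12, 11 to 1 bases before it in Igfbp5 and 107 to 97 bases before it in P2ry14. RefSeq gives other starts for Slc6a12 and P2ry14, and the windows of those starts held no match.

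Npy, Corin, Fst, Wnt7b and Angpt2 were among the 12 largest differences towards medulla. Npy, the gene of neuropeptide Y, had 6.86, 6.21 and 9.41 in cortex and 11.46, 11.10 and 12.06 in medulla (-4.05 ± 0.42, adjusted p = 0.0291). Cortex replicate 3 was the highest cortex array, as it was also for Slc14a2 and Slc6a12, and lay below every medulla array. Corin, a membrane-bound protease that activates atrial natriuretic peptide, had 5.61, 5.50 and 6.02 in cortex and 8.999, 8.68 and 8.95 in medulla (-3.17 ± 0.14, adjusted p = 0.00467). Its probe was detected on 1 of 3 cortex arrays, and the difference was -1.67 with the deposited normalisation. Fst, which encodes the activin-binding protein follistatin, was undetected on all cortex arrays and at least 6.98-fold higher in medulla (adjusted p = 0.0104). Wnt7b, a ligand that the developing medulla needs, had 6.01, 5.46 and 6.60 in cortex and 9.33, 8.22 and 8.70 in medulla (-2.73 ± 0.24, adjusted p = 0.0173), with detection on 2 of 3 cortex arrays. Angpt2, a ligand of the endothelial receptor Tie2, had -2.42 ± 0.18 (adjusted p = 0.0104), and its second probe, in the fit of every probe, -1.97 ± 0.18. In each of these genes the 3 arrays of one tissue lay apart from those of the other, which is the case for 7.14% of all genes with cortex above and 5.72% with medulla above.

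**Figure D1:**
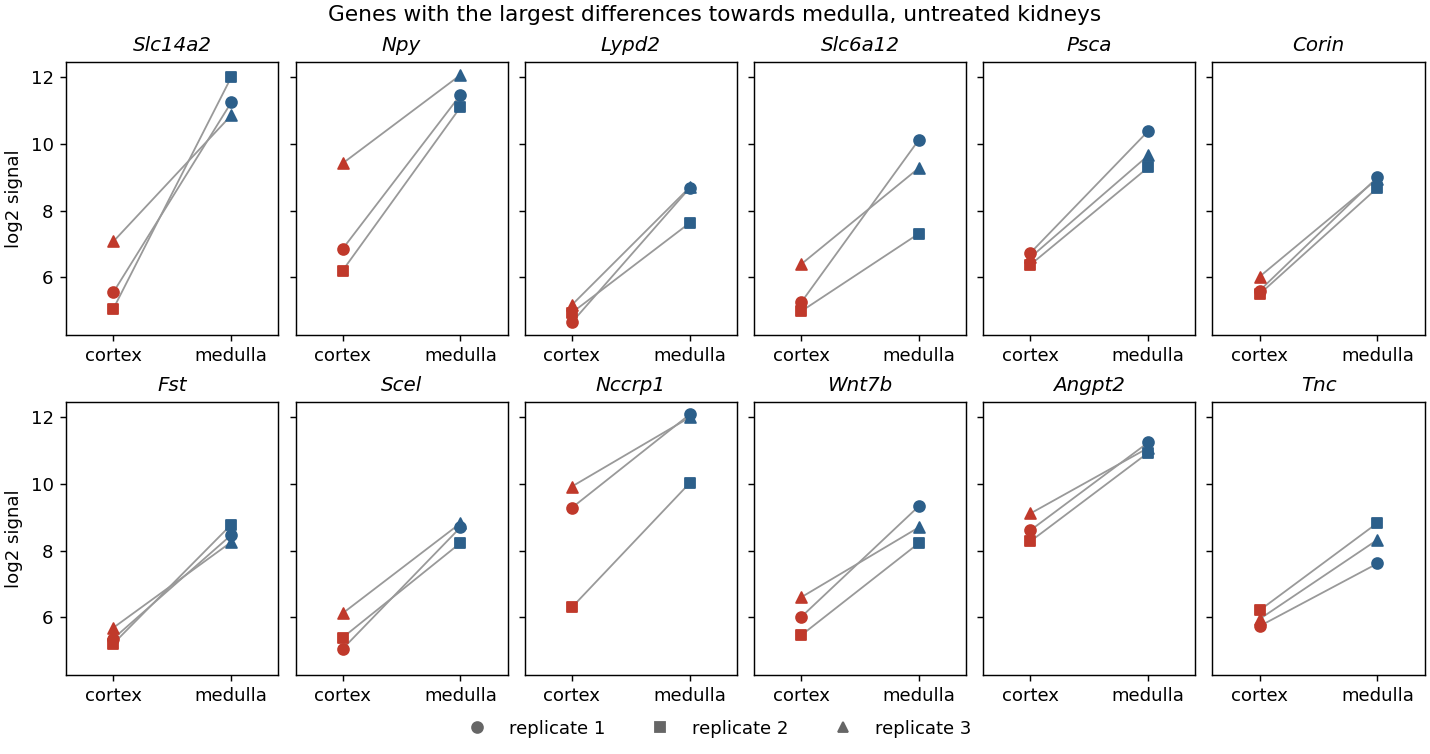
Log2 signal (vertical axis) of the 12 genes with the largest called differences towards medulla, in cortex and medulla of untreated kidneys. Points are single arrays, lines join arrays of the same replicate number, and every line rises to the right, with the steepest for Slc14a2 at a difference of -5.46.

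Matrix and stromal genes were called with them. Tnc, the matrix glycoprotein tenascin C, had 5.74, 6.21 and 5.95 in cortex and 7.61, 8.83 and 8.32 in medulla (-2.29 ± 0.17, adjusted p = 0.0104), and Cdkn2b, the cell cycle inhibitor p15, had -2.12 ± 0.16 (adjusted p = 0.0104). With Wnt7b, these 2 were the 3 called of 10 tested genes in the list of medullary interstitial cells, whose median was -0.73. Over all genes 0.745% were called higher in medulla. Wnt7b is known in the kidney from collecting duct epithelium and stands in that list because it acts on the interstitium. Pdgfra (-0.75), Cxcl12 (-0.78) and Wnt5a (-0.68) were not called, nor were Foxd1 (0.27) and Bmp4 (0.17). Of the wider fibroblast and matrix list of 15 tested genes 1, Tnc, was called, and the collagens Col1a1 (-0.35), Col3a1 (-0.0033) and Col4a1 (-0.07) were not. The proteoglycan Dcn (-0.60) and the calcification inhibitor Mgp (-0.52) were not called.

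Among urothelial genes, 3 were called higher in medulla. Psca, a surface antigen of urothelium, had 6.73, 6.38 and 6.60 in cortex and 10.38, 9.29 and 9.65 in medulla (-3.20 ± 0.18, adjusted p = 0.00782). Uroplakins form the rigid plaques of the urothelial surface. Upk3b and Upk1b were undetected on all cortex arrays and were at least 3.51-fold (adjusted p = 0.0173) and 2.35-fold (adjusted p = 0.0311) higher in medulla. Upk3a was likewise undetected on the cortex arrays and had 6.71, 5.84 and 6.002 in medulla, but was not called (adjusted p = 0.0830). The basal cell factor gene Trp63 had -0.82 (adjusted p = 0.0833). Of 9 tested urothelial genes 3 were called towards medulla (0.745% of all genes) and 0 towards cortex. All 3 pairs ran towards medulla in 7 of the 9 (18.1% of all genes). The median of -1.24 was -0.67 without replicate 2, -0.47 with the deposited normalisation and -0.50 without background correction. The list mean per array was 6.81, 6.60 and 6.39 in cortex and 8.03, 8.08 and 7.62 in medulla, and the basal cell keratin Krt14 differed between pairs, with 8.80 on medulla replicate 2 and at most 6.22 on the other 5 arrays. Upk2, Krt5, Krt15, Krt17, Krt20 and Sfn did not pass the detection filter. The part of urothelium in the other differences towards medulla was not tested.

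Other genes known from epithelia were called higher in medulla. Scel, Lypd2 and Nccrp1 are among the 12 largest differences, Elf5 and Ugt8a stand in gene lists, and the rest were chosen after their values were seen. Scel, a precursor of the cornified envelope, had 5.06, 5.39 and 6.12 in cortex and 8.69, 8.23 and 8.82 in medulla (-3.06 ± 0.21, adjusted p = 0.0104). It was detected on 1 of 3 cortex arrays, and the deposited normalisation gave -1.52. The plakin Ppl (-1.73), the keratin Krt23 (-1.05) and the envelope protein Sprr1a (-1.18) were called, and so was the laminin chain Lamb3, undetected in cortex and at least 2.35-fold higher in medulla. The second probe of Ppl gave 0.02 ± 0.21. The transcription factors Klf5 (-1.93 ± 0.22, adjusted p = 0.0313) and Elf5 (-1.80 ± 0.20, adjusted p = 0.0311), both of epithelial cells, were higher in medulla. Lypd2, of the Ly6 family, was undetected in cortex and at least 6.24-fold higher in medulla (adjusted p = 0.0104). Nccrp1, a glycoprotein-binding protein of the F-box family, had 9.28, 6.30 and 9.92 in cortex and 12.07, 10.02 and 11.98 in medulla (-2.86 ± 0.30, adjusted p = 0.0291). Replicate 2 was low in both tissues, which do not overlap. Another pair of called genes was Ugt8a (-1.30 ± 0.13, adjusted p = 0.0279) and Fa2h (-1.13 ± 0.14, adjusted p = 0.0363), the galactosyltransferase and the hydroxylase of hydroxylated galactosylceramide synthesis.

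Vessel genes were called in smaller steps. Igfbp5, an insulin-like growth factor binding protein, had 12.68, 12.46 and 12.66 in cortex and 13.87, 13.64 and 13.81 in medulla (-1.17 ± 0.12, adjusted p = 0.0291). The spread within each tissue was small against the difference. With S100a6 (-1.08) and Slc14a1 it made 3 called of 12 tested genes in the list of vasa recta and medullary vessels (median -0.34). Towards cortex 0 of the 12 were called. Over all genes 0.745% were called higher in medulla. In the general endothelial list 1 of 14 was called, the junction protein Esam (-0.93 ± 0.13, adjusted p = 0.0401), and Pecam1 (-0.34), Cdh5 (0.22) and Ehd3 (0.36, known from glomerular endothelium) were not. The diaphragm protein Plvap of fenestrated vessels had -0.90 (adjusted p = 0.0767). Prox1, a transcription factor known from lymphatic and ascending vasa recta endothelium, had -1.62 ± 0.19 (adjusted p = 0.0358), and P2ry14, a receptor for UDP-glucose known from intercalated cells, had -1.06 ± 0.15 (adjusted p = 0.0460). Both were chosen after their values were seen.

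Of the myeloid genes 1 was called higher in medulla. The macrophage lysozyme Lyz2 had 11.47, 9.55 and 8.84 in cortex and 12.95, 11.14 and 11.45 in medulla (-1.89 ± 0.24, adjusted p = 0.0358). The tissues overlap because replicate 1 was high in both, and each pair ran the same way. Its second probe had -1.02 ± 0.17 (adjusted p = 0.0616 in the fit of every probe), and the near-identical Lyz1 can share its signal. It was the 1 called of 14 tested myeloid genes, while 10 had all 3 pairs towards medulla (18.1% of all genes). The list's median was -0.60 (-0.30 with the deposited normalisation). The complement genes C1qa, C1qb and C1qc had -0.66, -0.88 and -1.03, with adjusted p between 0.0644 and 0.0830, and the lipopolysaccharide co-receptor Cd14 had -1.05 (adjusted p = 0.0761). The chemokines Ccl12 (-1.48) and Ccl8 (-1.42), chosen after their values were seen, were called. Lymphocyte genes had a median of 0.07 with 0 of 6 called by limma (1, Ccl5, at an unadjusted p under 0.05).

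Lcn2, the iron-scavenger lipocalin that damaged tubules release, had 8.53, 11.78 and 6.24 in cortex and 10.28, 13.72 and 7.86 in medulla (-1.77 ± 0.13, adjusted p = 0.0104). The arrays spread over more than 5 log2 units in each tissue, with replicate 2 highest in both, and the pairs differed by -1.75, -1.94 and -1.62. Of the 6 tested injury markers it was the 1 called. Havcr1, the injury molecule of the proximal tubule, had -0.73 (adjusted p = 0.0612), and Clu had 0.65 (adjusted p = 0.116). The list mean was 9.57, 10.89 and 8.23 in cortex and 9.75, 11.31 and 8.30 in medulla.

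The genes called higher in cortex included transporters and metabolic enzymes. Hykk, the kinase that degrades hydroxylysine, had 9.30, 9.14 and 9.39 in cortex and 7.77, 7.59 and 8.13 in medulla (1.45 ± 0.13, adjusted p = 0.0219). Slc2a9, the urate transporter, had 6.94, 7.41 and 7.42 in cortex and 5.46, 6.30 and 5.76 in medulla (1.42 ± 0.15, adjusted p = 0.0291). In both the tissues did not overlap. Slc22a8, the organic anion transporter OAT3 of the basolateral proximal tubule, had 7.24, 9.27 and 10.03 in cortex and 6.35, 8.34 and 8.83 in medulla (1.01 ± 0.13, adjusted p = 0.0399). Replicate 1 was the lowest in both tissues, so the tissues overlap although each pair differed by 0.89 to 1.20. Acsm2, a medium-chain acyl-CoA synthetase, had 8.70, 9.49 and 10.14 in cortex and 7.75, 8.17 and 9.12 in medulla (1.10 ± 0.14, adjusted p = 0.0358). Oxgr1, the 2-oxoglutarate receptor of intercalated cells, had 10.07, 8.55 and 9.03 in cortex and 9.12, 7.65 and 8.09 in medulla (0.93 ± 0.12, adjusted p = 0.0378).

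The remaining 10 were Olfm3 (1.41, but 0.05 on its second probe), Zfp395 (1.28), Cyp4a12b (1.08), the transcription factor Sall3 (1.03), Hhatl (1.02), Klk1b8 (1.02), the mTORC2 component Prr5 (1.01), the folate enzyme Aldh1l2 (1.00), the ubiquinone enzyme Coq3 (0.99) and the pyrimidine-degrading enzyme Dpyd (0.95). Cyp4a12b and Klk1b8 have near-identical copies that may share their signal, so their values are uncertain. Of the 15 genes, 8 had arrays that did not overlap, against 66 of the 74 towards medulla. Over all genes the shares were 7.14% with cortex above and 5.72% with medulla above. The calls come from the same arrays, so these counts are no separate result. In 12 of the 15 the probe was detected on 3 of 3 medulla arrays, whereas 45 of the 74 medulla genes were detected on all 3 cortex arrays and 15 on none.

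**Figure D2:**
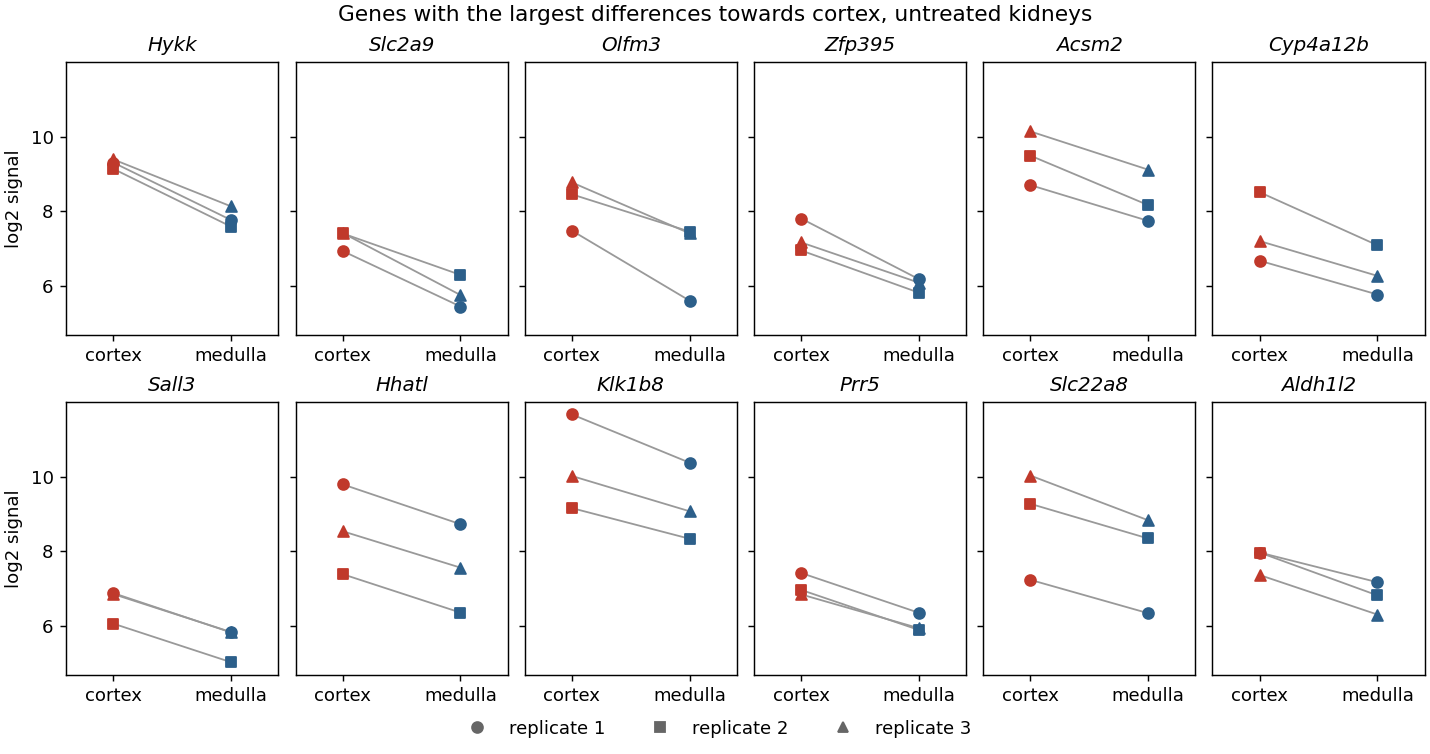
Log2 signal (vertical axis) of the 12 genes with the largest called differences towards cortex, in cortex and medulla of untreated kidneys. Points are single arrays, lines join arrays of the same replicate number, and every line falls to the right, with mean differences of 1.00 to 1.45, while line heights differ between replicates for genes such as Slc22a8 and Hhatl.

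HNF1 and HNF4A are known regulators of proximal tubule genes. The full paired HNF1 site stood in 0 of the called windows and in 0.0396% of all windows, and the HNF4A motifs CAAAGTCCA and CAAAGTTCA also in 0 of the called windows, against 0.861% of all. The core hexamer GTTAAT of the HNF1 site, searched on both strands after these counts were seen, stood in 4 of 16 windows of cortex genes (25.0%), 3 of 70 windows of medulla genes (4.29%), 4.77% of windows of tested genes and 7.10% of all windows. The GATA core AGATAA stood in 12.5% of cortex and 8.57% of medulla windows, against 6.66% of windows of tested genes and 11.2% of all. By gene these shares were 18.2% for cortex, 6.25% for medulla and 8.15% for tested genes. The 4 stretches with the hexamer are shown because they belong to called cortex genes; capitals mark it, or its reverse complement ATTAAC.

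Slc22a8 (chr19:8593077-8593136, plus strand): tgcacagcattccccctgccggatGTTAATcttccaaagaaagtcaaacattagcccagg

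Acsm2 (chr7:119554150-119554209, plus strand): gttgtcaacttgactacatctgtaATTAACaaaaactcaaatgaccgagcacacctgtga

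Coq3 (chr4:21879553-21879612, plus strand): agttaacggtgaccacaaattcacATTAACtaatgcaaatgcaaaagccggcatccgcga

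Oxgr1 (chr14:120042472-120042531, minus strand): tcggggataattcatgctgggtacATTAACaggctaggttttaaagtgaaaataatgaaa

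The hexamer lies 81 to 76 bases before the start in Slc22a8, 166 to 161 in Acsm2, 69 to 64 in Coq3 and 72 to 67 in Oxgr1. Acsm2 and Coq3 each have another start, whose window did not hold it.

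Lists of cortical nephron segments had medians above 0 with few called genes. Of 13 tested markers of the early proximal tubule 1, Slc22a8, was called higher in cortex and 0 higher in medulla, 8 had all 3 pairs towards cortex (24.1% of all genes), and the median was 0.37 (0.19 without replicate 3). Uncalled members included the organic anion transporter Slc22a6 (0.61), the amino acid exchanger Slc7a8 (0.59), the glucose transporter Slc5a2 (0.28), the phosphate transporter Slc34a1 (0.17) and the nuclear receptor Hnf4a (0.20). Markers of the straight part of the proximal tubule, which lies in the outer medulla and the cortical rays, ran the other way (median -0.38). Of 10 tested, 5 had all pairs towards medulla (18.1% of all genes) and 1 towards cortex. Limma called 0 in either direction (3 at an unadjusted p under 0.05). Without replicate 1 the median was -0.59. Atp11a, a phospholipid flippase undetected on the cortex arrays, had 4.78, 4.85 and 5.01 in cortex and 6.43, 5.69 and 6.18 in medulla (adjusted p = 0.0503). The organic anion transporter Slc22a19 had 11.70, 10.65 and 11.75 in cortex and 12.21, 11.72 and 12.41 in medulla (-0.75 ± 0.15, adjusted p = 0.0877), and another of its probes had -1.24 ± 0.14 (adjusted p = 0.0287 in the fit of every probe). Of 6 genes of apical protein uptake limma called 0 (0 at an unadjusted p under 0.05), 3 had all pairs towards cortex, and the median was 0.13. Amn, the anchor of the receptor cubilin, had 0.33 (adjusted p = 0.294). Its arrays did not overlap, as for 7.14% of all genes with cortex above. Lrp2, which encodes megalin, had -0.11 (adjusted p = 0.738). The 5 somatostatin receptor genes, whose ligand class the peptide belongs to, were detected on 0 of the 6 arrays.

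Distal convoluted and connecting tubule genes had a median of 0.43. Of 11 tested, 9 had all 3 pairs towards cortex (24.1% of all genes). Limma called 0 (8 at an unadjusted p under 0.05, against 1815 of all 9928 genes). The thiazide-sensitive cotransporter Slc12a3 had 14.23, 13.52 and 13.64 in cortex and 13.23, 12.80 and 13.09 in medulla (0.76 ± 0.14, adjusted p = 0.0767). Its arrays did not overlap, as for 7.14% of all genes with cortex above. The calcium-binding proteins Pvalb and S100g had 0.77 (adjusted p = 0.0584) and 0.84 (adjusted p = 0.0799), and the sodium-calcium exchanger Slc8a1 had 0.76 (adjusted p = 0.0699). Intercalated cell genes had a median of 0.62 (0.44 without replicate 1). Of 11 tested, Oxgr1 was called and 7 had all pairs towards cortex (24.1% of all genes). The exchangers Slc4a9 (1.15 ± 0.18, adjusted p = 0.0539) and Slc26a4 (0.89 ± 0.13, adjusted p = 0.0503) of type B cells missed the threshold, and the ammonia channels Rhbg and Rhcg had 0.83 and 0.61. Car2 had -0.42. In the principal cell list, of median 0.03 (-0.20 without replicate 1), called members were higher in medulla. Aqp4, the basolateral water channel, had 10.19, 8.99 and 9.21 in cortex and 11.52, 10.89 and 10.77 in medulla (-1.59 ± 0.15, adjusted p = 0.0255), and Elf5 was called with it. The apical channel gene Aqp2 had -1.02 ± 0.19 (adjusted p = 0.0747) and Fxyd4 -1.16, whereas the sodium channel subunits Scnn1a, Scnn1b and Scnn1g had 0.53, 0.80 and 0.59 and the potassium channel subunit Kcne1 1.17 (adjusted p = 0.0599), none of them called.

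Thick ascending limb genes had a median of -0.36. Of 14 tested, 9 had all pairs towards medulla (18.1% of all genes) and 0 had all pairs towards cortex. Limma called 0 (7 at an unadjusted p under 0.05, against 1815 of all 9928 genes). The cotransporter Slc12a1 had 13.97, 13.64 and 13.95 in cortex and 14.33, 14.41 and 14.57 in medulla (-0.58 ± 0.14, adjusted p = 0.114). Its arrays did not overlap, as for 5.72% of all genes with medulla above. Umod, the most abundant protein of urine, had -0.26. Irx1 and Irx2, transcription factors of the loop, had -0.70 and -0.71. The probes of the paracellular channel gene Cldn10 disagreed: the one used here had -0.58 ± 0.13, and of 3 others 1 had -2.20 ± 0.16 (adjusted p = 0.00924 in the fit of every probe), and the rest -0.82 and -0.16. Thin limb genes had a median of -1.06, with 3 of 8 called higher in medulla (0.745% of all genes), Slc14a2, Corin and Cryab. The median was -0.67 with the deposited normalisation. Bst1, an ADP-ribosyl cyclase family member, missed the threshold at -2.28 ± 0.34 (adjusted p = 0.0503), and Aqp1 was at -0.21 on the probe used and at -0.60 and -0.70 on its others.

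**Figure D3:**
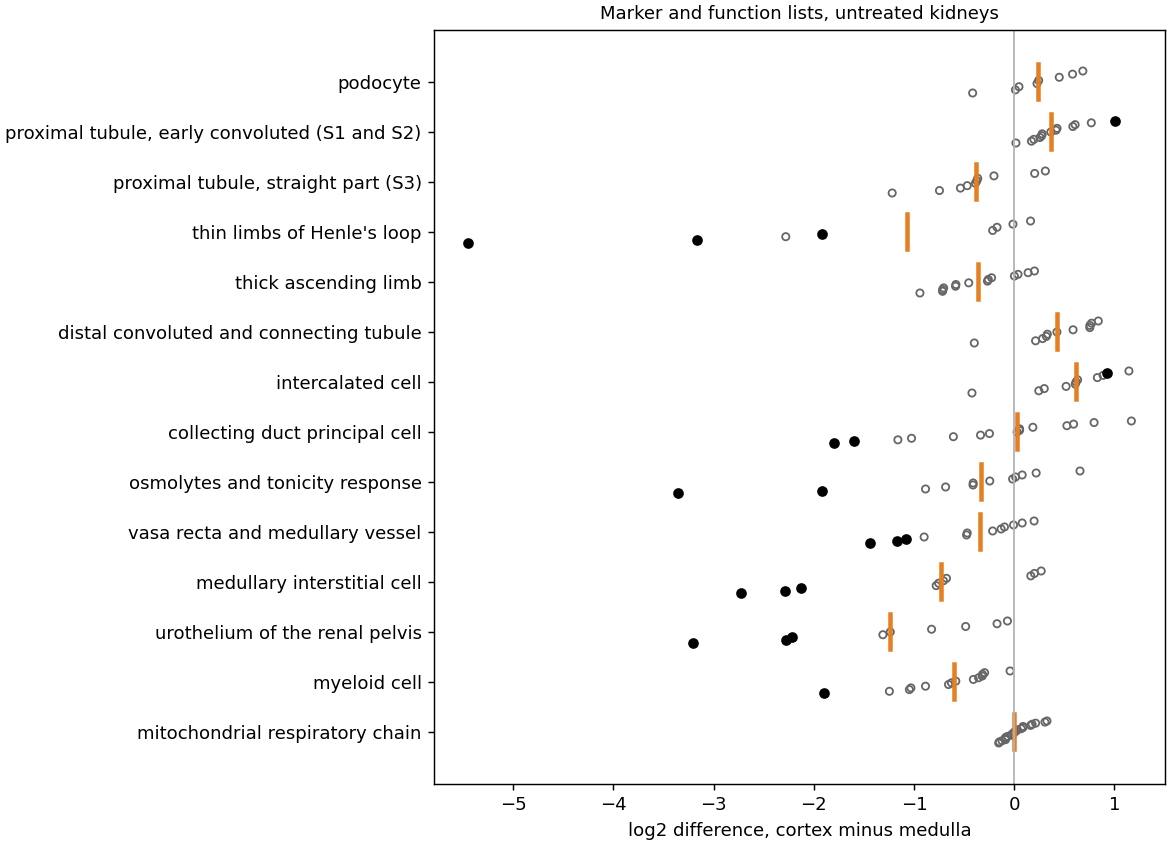
Log2 difference (horizontal axis, cortex minus medulla) of each tested member of 14 gene lists. Circles are genes, filled ones are called at an adjusted p under 0.05, and the orange line is the list median. The urothelium median stands at -1.24 (-0.67 without replicate 2, -0.47 with the deposited normalisation), the intercalated cell median at 0.62 and the respiratory chain at 0.00.

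Metabolic lists showed few called members. Of 13 organic anion and cation transporters 2 were called higher in cortex, Slc2a9 and Slc22a8, and 0 higher in medulla (median 0.20). Cytochrome P450 genes had a median of 0.36 (0.20 without replicate 2) with 1 of 19 called, and phosphate and vitamin D genes a median of 0.42 (0.19 without replicate 3) with 0 of 10 called by limma (4 at an unadjusted p under 0.05). Of the vitamin D genes, Cyp27b1, the enzyme that activates vitamin D, had 0.86 (adjusted p = 0.0830) and Kl, the co-receptor klotho, 0.60 (adjusted p = 0.109). Pck1, the rate-limiting enzyme of gluconeogenesis, had 7.52, 9.80 and 9.37 in cortex and 6.90, 8.91 and 8.46 in medulla (0.81 ± 0.13, adjusted p = 0.0599). Of 14 glycolytic genes 1 was called, the phosphofructokinase Pfkp (-1.05 ± 0.14, adjusted p = 0.0399), whose other probe had -1.58, while Pfkl (-0.41), Gapdh (0.12) and Ldha (-0.13) were not. The list's median was -0.10. Of 15 fatty acid oxidation genes Acsm2 was the 1 called (median 0.02) and its relative Acsm3 had 1.23 (adjusted p = 0.0822), and of 21 respiratory chain genes limma called 0 (1 at an unadjusted p under 0.05), with values between -0.15 and 0.33 and a median of 0.00. Ptgds, a prostaglandin D synthase, had -1.26 ± 0.15 (adjusted p = 0.0320) and was the 1 called of 9 prostaglandin and endothelin genes.

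The remaining lists held few called genes. The 7 tested water channels had a median of -0.21 (0.04 without replicate 3) with Aqp4 called, and the 13 tested claudins a median of -0.17 (-0.33 without replicate 3) with 0 called by limma (5 at an unadjusted p under 0.05). Cldn11, a tight junction protein, had 4.95, 5.72 and 5.31 in cortex, where 1 of 3 arrays detected it, and 10.06, 6.80 and 7.97 in medulla. The difference was -2.95 (adjusted p = 0.109), and without replicate 1 it was -1.87 and called (adjusted p = 0.0252). In the renin-angiotensin list, with 0 of 6 called, Ace had -1.15 (adjusted p = 0.0665), and another Ace probe had -1.45 (adjusted p = 0.0248 in the fit of every probe). Of 21 patterning transcription factors Elf5 was called (median 0.05), with Lhx1 at 0.97 and Pou3f3 at -0.98, both above the threshold. Of 21 drug conjugation genes Ugt8a was called (median 0.09). Podocyte genes had a median of 0.24 with 0 of 8 called by limma (3 at an unadjusted p under 0.05), and the transcription factor Wt1 had 0.69. No gene was called by limma in the lists for smooth muscle and pericytes (8 tested, median -0.01), red blood cells (4, -0.06), amino acid transport (11, 0.16), ammonia and acid handling (9, 0.21), the sodium pump (6, -0.20), hypoxia (16, 0.04), immediate early genes (12, -0.02), the circadian clock (12, 0.09) or proliferation (8, 0.17). Glucose genes had 0.22 over 9 tested with 0 called, and of 9 adrenal cortex genes on the array 1 passed the detection filter.

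Some list means differed more between replicate numbers than between tissues. For single genes, the range of the 3 pair means exceeded the tissue difference for 80.4% of all genes. The median range was 0.41, against a median absolute tissue difference of 0.17. These are unlike measures: a range of 3 means is mostly the larger even where replicate numbers have no effect. They therefore do not show which spread was greater in single genes. MHC class II genes had list means of 11.60, 11.05 and 8.79 in cortex and 11.68, 10.64 and 8.92 in medulla, and interferon response genes 11.10, 9.60 and 8.53 in cortex and 11.02, 9.39 and 8.73 in medulla. In both lists replicate 1 was highest and replicate 3 lowest in each tissue, with 0 of 8 and 0 of 17 genes called by limma (1 of each at an unadjusted p under 0.05). Early proximal tubule markers had the opposite order, 9.33, 10.75 and 11.26 in cortex and 9.11, 10.35 and 10.63 in medulla. Adipocyte genes, of which 5 of 11 on the array were tested, had 11.10, 6.93 and 8.48 in cortex and 9.49, 7.20 and 8.56 in medulla. Adipoq had 12.14, 5.17 and 8.80 in cortex and 9.86, 5.16 and 8.68 in medulla, and cortex replicate 1 was the highest array. The part of fat in these values was not tested.

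**Figure D4:**
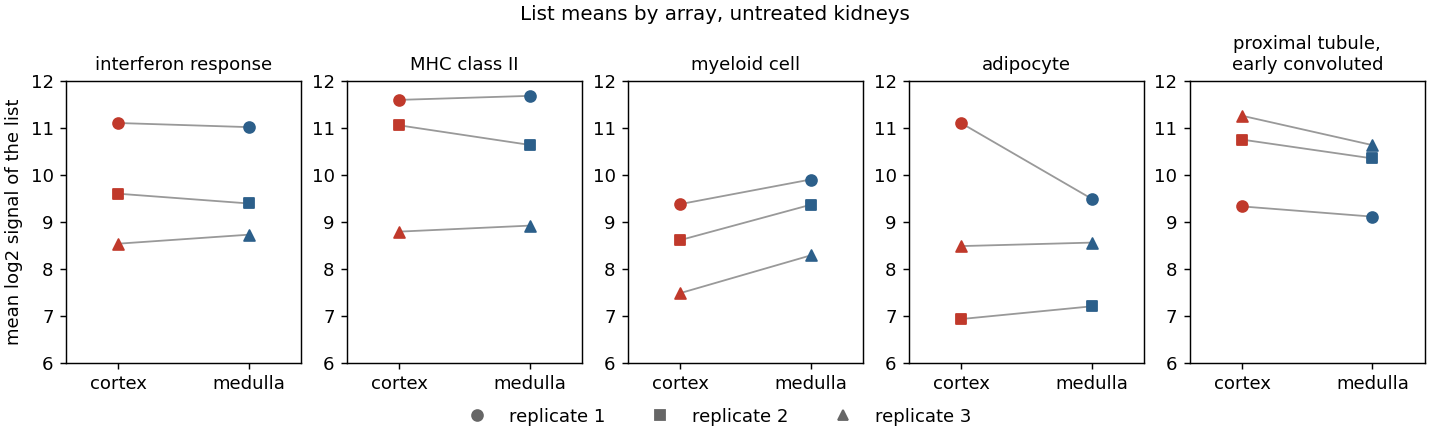
Mean log2 signal (vertical axis) of 5 gene lists on each array, with cortex left and medulla right and lines joining arrays of the same replicate number. Interferon and MHC class II means differ by over 2 log2 units between replicates 1 and 3 in each tissue, while the lines are nearly flat.

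The treated arrays took part in the normalisation but not in the fit behind the calls, and gave the same directions. Averaged over the 5 activities, 15 of 15 cortex genes and 74 of 74 medulla genes had the direction of the untreated arrays. At each of the 5 activities 15 of 15 and 66 of 74 did, against 22.4% of all genes for cortex and 17.3% for medulla. The median difference was 0.84 for the cortex genes and -1.28 for the medulla genes, against 1.02 and -1.30 in the untreated arrays. With 15 arrays against 15, the tissues did not overlap for 19 of the 74 medulla genes, among them Npy, Corin, Fst, Scel, Nccrp1, Igfbp5 and Esam, and for 0 of the 15 cortex genes, against 0.614% of all genes with medulla above and 0.0201% with cortex above. Slc14a2 had -4.33 in the treated arrays and overlapped there. Bcat1, a branched-chain amino acid transaminase chosen after its values were seen, had -2.53 in treated arrays and -1.04 in untreated ones, and Sprr1a had -0.12 and -1.18.

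The difference between tissues at 0 MBq was also tested against the mean difference over the 5 activities, in a fit of all 36 arrays. Of 11471 genes limma called 0, with 205 at an unadjusted p under 0.05 and a lowest adjusted p of 0.9999, and no alternative called any, the lowest adjusted p being 0.106 without replicate 3. The smallest unadjusted p-values belonged to the splicing regulator Khdrbs3 (-1.13 ± 0.29) and the RNA-binding enoyl-CoA hydratase Auh (-0.60 ± 0.15). A value below 0 is a shift towards medulla in untreated arrays. The untreated difference of Khdrbs3 was towards medulla, between -1.41 and -0.89 on leaving out a replicate. Next came Spata2 (0.80), Prss38 (0.87), the unnamed probe ILMN_2987615 (0.86), Top3a (0.73), Slc39a4 (-0.66) and Hnrnpul1 (-0.76). The contrast values of all 8 are untreated minus treated. These values do not show that the tissue difference was the same in untreated and treated kidneys.

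**Figure D5:**
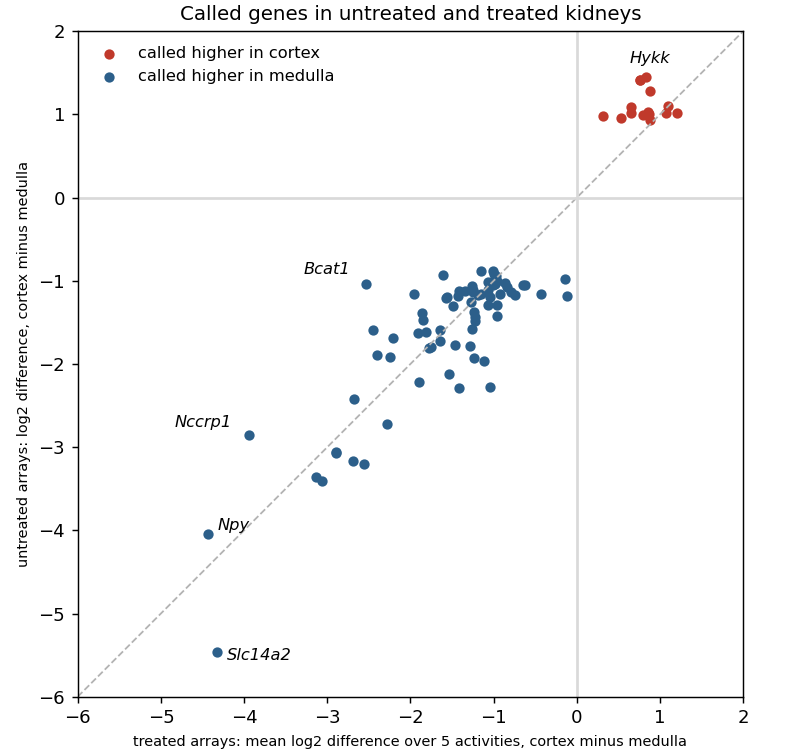
Log2 difference between cortex and medulla of the 89 called genes in untreated arrays (vertical axis) against the mean over the 5 injected activities in treated arrays (horizontal axis). Points are genes and the dashed line marks equal values; all points lie in the quadrant of their own direction, with Bcat1 at -2.53 in treated and -1.04 in untreated arrays.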

How the data were processed

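The authors deposited a table of linear bead intensity values without background subtraction or normalisation, each with a detection p-value, per the file headers. A series table of intensity values that the authors had normalised served as an alternative; its method is not given in the sources used here. Per the labels' protocols, total RNA was extracted on columns, and its quality was assessed by Bioanalyzer before biotin labelling.

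Of 25697 probes 23974 had 1 gene symbol, 0 several and 1723 none, in the platform annotation. All 36 arrays were normalised together by neqc (limma 3.58.1, R 4.3.3, offset 16, negative controls inferred from the detection p). Data handling used data.table (version 1.17.8) and figures matplotlib 3.10.9. Probes with a detection p under 0.05 on at least 3 of the 6 arrays were kept, 1 per gene (highest mean signal); 770 unnamed probes stayed under their identifiers. The main test was limma (lmFit, eBayes) with tissue and replicate number, with 2 residual degrees of freedom, Benjamini-Hochberg adjusted. The pairing was set by the replicate number in the titles. The labels do not state that same-numbered arrays belong together, and the correlations above only describe how they deviated together.

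Genes were named from the 12 largest called each way (all pairs alike, detected on 3 of 3 arrays of the higher tissue), up to 6 members per list with the smallest p (all of lists of up to 8), and the 8 smallest p against treated arrays; the text gives a selection of the list members, and further genes are given as examples chosen after their values were seen. The comparison and the 46 gene lists were chosen with earlier results of these data known.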

Additional observations from a re-analysis of the deposited data

How the results depend on the processing

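All 89 called genes kept their direction on the same probe with the deposited normalisation, normalisation on the 6 arrays and no background correction. Except for the fit of every probe, which adds other probes of a gene, the other settings could not reverse a gene. They reused the same differences or left out a pair of a gene whose pairs all ran alike. Under the stricter detection filter 79 of the 89 were tested. In the fit of every probe the second probe of Ppl had 0.02, against -1.73 on the probe used. The counts moved. With no replicate block 7 genes were called (0 higher in cortex, 7 higher in medulla). With all 36 arrays and no replicate block the numbers were 47 (3 and 44), and with the 18 pairs as a replicate block 166 (60 and 106), of which 55 were among the 89. The deposited normalisation gave 571 (231 and 340), no background correction 540 (218 and 322), and normalisation on the 6 arrays 119 (29 and 90). No detection filter gave 32 of 18316 genes (3 and 29), the stricter filter (detection p under 0.01 on all 3 arrays of either tissue) 264 of 8275 (90 and 174), and every probe 116 of 13161 (17 and 99). An adjusted p under 0.01 with at least 1.5-fold left 2, Corin and Psca (0 and 2). Leaving out each replicate gave between 0 and 383 genes, 0 to 148 higher in cortex and 0 to 235 higher in medulla. The 0 came without replicate 2, where 1 residual degree of freedom remains, as it does without replicates 1 and 3. Beyond that the cause was not tested. The 89 values shrank by over 1.5 times for 54 genes with the deposited normalisation and for 51 without background correction, and for 0 genes on leaving out a replicate. Of 45 list medians, 17 changed sign and 20 others moved by over 1.5 times in at least 1 of 6 alternatives (deposited normalisation, normalisation on the 6 arrays, no background correction and each replicate left out), many of them near 0. Glucose genes had 0.22 (0.07 without replicate 3), ammonia genes 0.21 (0.006 without replicate 2), and the adipocyte list 0.43 (-0.32 without replicate 1). The comparison with treated arrays called 0 genes in every setting run. Probes near background limit the size of the largest differences.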
